A study of Mus musculus with 27 samples.

Results

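The genes described here are 10 secreted proteins that act on the contact between bone-forming cells and their matrix: Sparc, Sparcl1, Smoc1, Smoc2 and Fstl1, which belong to the SPARC family, and Fn1, Tnc, Thbs1, Thbs2 and Postn. They were taken by name as a family, with earlier results of these data known, and all 10 were found among the 37991 gene identifiers of each profile. The 27 profiles came from total RNA of calvarial cells, the cells of the flat skull bones, of neonatal C57BL/6J-Col3.6 CFP mice aged 5 to 9 days. All the mice carried cyan fluorescent protein (CFP) driven by the Col3.6 fragment of the type I collagen promoter, and only cells that expressed CFP after 4 days of growth were kept by sorting. They were then cultured in ascorbic acid, 4 mM beta-glycerol phosphate and 10% fetal bovine serum. RNA was collected every other day from day 2 to day 18. By their labels the groups differ in day alone, and there is no untreated control. The Col3.6 fragment is active in early osteoblasts and also in other collagen-producing cells, so CFP marks a mixed pre-osteoblast population. Each of the 9 time points has 3 profiles, which the study's methods describe as triplicate samples. The 3 profiles of a day carry the same barcode and different sequencing lanes in their names, and they were counted here as 1 library.

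SPARC (osteonectin) is an abundant non-collagenous protein of bone that binds collagen and calcium, and its relatives share a calcium-binding domain of the same type. Fibronectin (Fn1) is laid down first as a fibril network on which collagen is organised. Tenascin-C (Tnc), the thrombospondins (Thbs1 and Thbs2) and periostin (Postn) are matricellular proteins, which modulate adhesion and growth factor activity more than they bear load, and periostin takes its name from the periosteum.

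The 9 summed libraries held 22470146 to 62009116 estimated counts, and the lanes of a time point agreed within sampling noise (chi-square per degree of freedom from 0.999 to 1.02 among genes with whole-number counts). An SD below is therefore over 3 lanes (n = 3) and is taken to cover sequencing and quantification only, and no spread between separate cultures was measured on this reading. Of 11 osteoblast markers, 8 rose with day, among them Bglap2 (osteocalcin), which was at 0.795 TPM at the start and 274 TPM at the end, and Col1a1, at 1526 and 4263 TPM. Sp7, Spp1 and Alpl did not pass. Among all genes tested with the line described below, 28.3% rose and 26.1% fell. Alpl, the tissue-nonspecific alkaline phosphatase, stayed between 0.467 and 17.6 TPM, low for a defining marker. Markers of other cells moved with day as well. In summed level, the 7 macrophage markers went from 24.1 to 61.7 TPM on days 2 to 6 to 522 to 2014 TPM on days 14 to 18 (6 rose), and the 5 adipocyte markers from 3.21 to 7.44 TPM to 188 to 407 TPM (5 rose). The 5 smooth muscle and pericyte markers went from 2925 to 5965 TPM to 972 to 1109 TPM (5 fell). Of 5 endothelial markers (3.24 to 3.95 TPM early, 8.84 to 12.0 late; 2 rose, 1 fell) Tie1 had 0 counts and Pecam1 stayed at or under 0.339 TPM. Of 4 osteoclast markers (37.3 to 85.8 TPM early, 205 to 215 late; 2 rose) Calcr had 0 counts, and of 4 cartilage markers 1 rose and 1 fell. The part of these cells in the results below was not tested, and in bulk RNA fewer cells of a type and less RNA per cell cannot be told apart.

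Fn1 and Tnc are also described by their splice forms, because the mean length of their transcripts changed over the days. Both genes hold cassette exons that are present in some annotated transcripts and absent from others. In Fn1 there are 2, and each encodes an extra fibronectin type III repeat. In the annotation of NCBIM37, the build of the deposited files, they lie on the minus strand at chr1:71660337-71660609 (273 bases, in the 46-exon transcript alone) and at chr1:71650234-71650503 (270 bases, in the transcripts of 46 and 45 exons). The sequences are shown 5′ to 3′ in coding direction, with the exon in lower case and the intron bases next to it in capitals.
Fn1 cassette exon 1: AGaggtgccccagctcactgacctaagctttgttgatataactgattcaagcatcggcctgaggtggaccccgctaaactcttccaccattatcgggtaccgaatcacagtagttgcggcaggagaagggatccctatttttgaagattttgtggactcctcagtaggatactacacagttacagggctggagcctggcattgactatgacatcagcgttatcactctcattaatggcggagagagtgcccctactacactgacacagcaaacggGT
Fn1 cassette exon 2: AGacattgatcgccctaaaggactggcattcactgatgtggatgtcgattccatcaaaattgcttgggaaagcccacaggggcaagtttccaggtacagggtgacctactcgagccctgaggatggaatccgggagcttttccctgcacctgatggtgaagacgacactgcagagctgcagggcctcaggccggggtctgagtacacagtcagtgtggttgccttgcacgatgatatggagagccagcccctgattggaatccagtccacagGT
In Tnc the 5 annotated transcripts with at least 20 exons differ by 6 cassette exons of 273 bases each, which likewise encode fibronectin type III repeats. Exon 1 at chr4:63661732-63662004 is in 4 of the 5 transcripts, exon 3 at chr4:63656575-63656847 in 2 (those of 25 and 26 exons), and exon 5 at chr4:63645494-63645766 in 1, all on the minus strand. Exons 1 and 3 had identical bases at 80.2% of positions and exons 1 and 5 at 50.2%, in an ungapped comparison.
Tnc cassette exon 1: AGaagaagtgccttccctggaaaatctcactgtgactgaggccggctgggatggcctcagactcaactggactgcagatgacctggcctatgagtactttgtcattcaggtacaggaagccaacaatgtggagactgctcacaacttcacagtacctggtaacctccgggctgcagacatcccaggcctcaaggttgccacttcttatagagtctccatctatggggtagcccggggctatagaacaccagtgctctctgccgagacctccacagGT
Tnc cassette exon 3: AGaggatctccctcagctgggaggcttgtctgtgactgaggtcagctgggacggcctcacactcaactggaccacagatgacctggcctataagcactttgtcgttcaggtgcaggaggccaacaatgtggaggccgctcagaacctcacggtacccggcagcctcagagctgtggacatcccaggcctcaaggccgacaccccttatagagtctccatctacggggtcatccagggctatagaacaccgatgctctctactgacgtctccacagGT
Tnc cassette exon 5: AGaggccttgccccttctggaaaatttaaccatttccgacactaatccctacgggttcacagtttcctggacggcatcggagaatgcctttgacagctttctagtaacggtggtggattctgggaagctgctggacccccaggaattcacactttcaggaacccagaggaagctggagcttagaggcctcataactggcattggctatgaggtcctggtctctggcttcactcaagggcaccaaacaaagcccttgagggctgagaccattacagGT
All 5 exons shown are flanked by AG and GT, and their lengths are multiples of 3 bases, so that skipping them leaves the reading frame intact.

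Over the 16 days between the first and the last library, the 10 genes parted into 7 that rose and 3 that fell. The direction was tested with a straight line in day, fitted to the summed counts with the quasi-likelihood test of edgeR, with p adjusted after Benjamini and Hochberg over 15659 genes, where a change is the fitted log2 change from day 2 to day 18 and passes at an adjusted p under 0.05. All 10 genes passed, against 54.3% of all genes tested. The 7 that rose (Sparc, Sparcl1, Smoc1, Smoc2, Fstl1, Thbs2 and Postn) compare with a share of 28.3% rising among all genes, and the 3 that fell (Fn1, Tnc and Thbs1) with 26.1% falling. The median fitted change was 1.39 over the 10 genes and 0.05 over all genes tested. Levels below are in TPM, the abundance per transcript length that RSEM scales to a sum of 1000000, and were further scaled to the upper quartile of each profile.

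**Figure D1:**
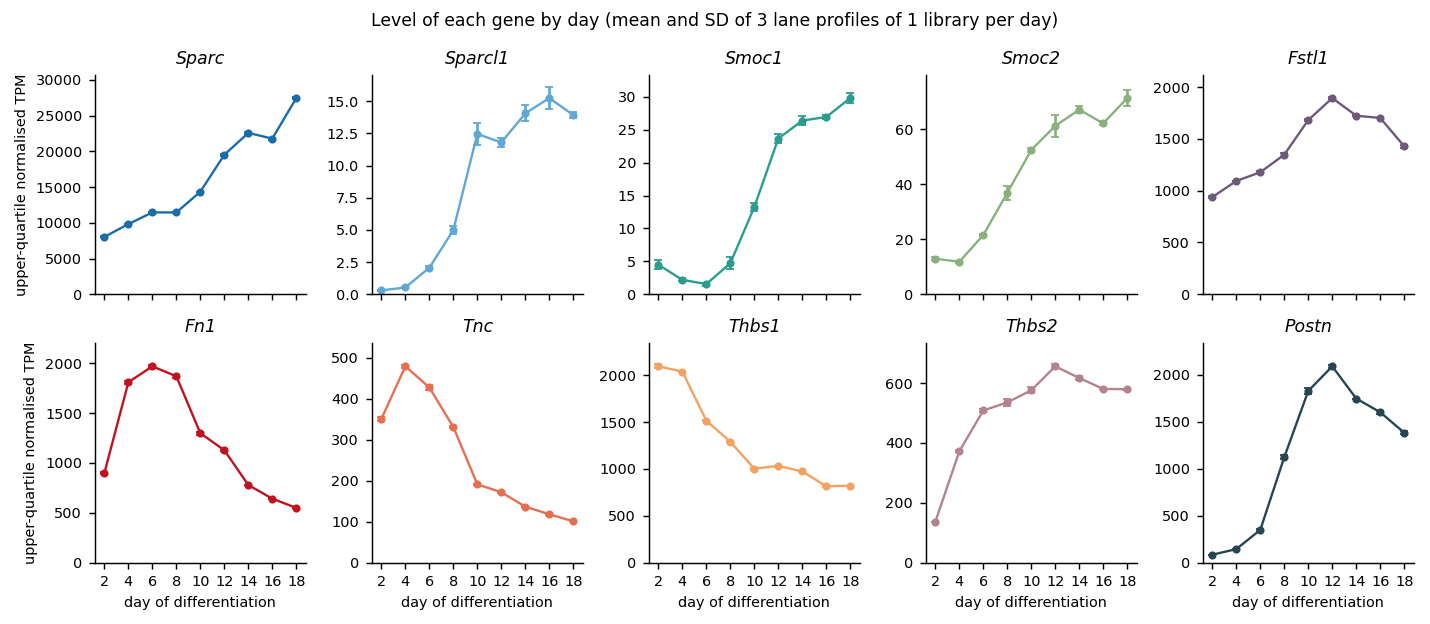
Level of each gene by day. Points are the mean of the 3 lane profiles of a day in upper-quartile normalised TPM, bars are their SD, and each vertical axis starts at 0. Fn1 and Tnc are highest on days 6 and 4, Fstl1, Thbs2 and Postn on day 12, and Sparc, Smoc1 and Smoc2 on day 18. In TPM as deposited, Fstl1, Thbs2 and Postn are highest on day 10 instead.

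Sparc (ENSMUSG00000018593, chr11:55208002-55233582, minus strand) was the highest of the 10 genes on every day. Its level was 8026, 9818, 11453, 11449.7, 14349, 19518, 22577, 21780.3 and 27451 TPM at the successive time points from day 2, with a lane SD of at most 0.973% of the level. Days 14 to 18 all lay above days 2 to 6, and the one fall beyond the lane SD was from day 14 to day 16. Along the line the change was 1.56 (standard error 0.14, edgeR adjusted p = 3.4e-05), and Sparc held rank 5 among all genes by TPM on day 2 and rank 3 from day 6 on. Of the deposited TPM, which sum to 1000000, Sparc took 0.837% on day 2 and 2.60% on day 18. The other 9 genes together took 0.471% on both days and were highest on day 10, at 0.703%, while the share of the whole group went from 1.31% to 3.07%. The ratio of the highest to the lowest day was 3.42 in upper-quartile normalised TPM, 3.10 in TPM as deposited and 2.80 in counts per 1000000 (CPM) with TMM factors, so that its size depends on the scale.

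Sparcl1 (hevin, ENSMUSG00000029309, chr5:104508130-104543107, minus strand), the nearest relative of Sparc, was the lowest of the 10 genes on all days but 6 and 8, when Smoc1 was lower, and had the largest fitted rise of the 10. Its level was 0.301, 0.528, 2.06, 4.99, 12.5, 11.8, 14.1, 15.2 and 13.9 TPM at the successive time points from day 2. Most of the climb was over by day 10, and from then on the levels lay between 11.8 and 15.2 TPM. Day 2 rests on 25 counts, or 0.591 CPM of the unscaled total (95% Wilson interval 0.401 to 0.873, counting error only), and day 10 on 534 counts, or 23.8 CPM (95% Wilson interval 21.8 to 25.9). In the fit the change came to 5.30 (standard error 1.09, edgeR adjusted p = 0.0022). Sparc and Sparcl1 were closest on day 10, when Sparc was 1152-fold higher.

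Smoc1 (ENSMUSG00000021136, chr12:82127795-82287401, plus strand) and Smoc2 (ENSMUSG00000023886, chr17:14416513-14541797, plus strand) encode modular calcium-binding proteins, and SMOC1 is known as a modulator of BMP signalling. Smoc1 first dropped and then rose: 4.49, 2.20, 1.55, 4.71, 13.3, 23.6, 26.4, 26.9 and 29.8 TPM at the successive time points from day 2. The dip is outside counting error, with 9.79 CPM on day 2 (95% Wilson interval 8.89 to 10.8) against 3.34 on day 6 (95% Wilson interval 2.84 to 3.93). Smoc2 had 13.0, 11.8, 21.5, 36.8, 52.4, 61.2, 67.1, 62.1 and 71.3 TPM at the successive time points from day 2 and lay above both earlier levels from day 6 on. The fitted changes were 3.86 for Smoc1 (standard error 0.74, edgeR adjusted p = 0.0014) and 2.84 for Smoc2 (standard error 0.43, edgeR adjusted p = 0.0004). Smoc2 was the higher of the pair on every day, and the ratio of Smoc1 to Smoc2 fell from 0.346 ± 0.045 on day 2 to 0.0721 ± 0.011 on day 6 before reaching 0.418 ± 0.019 on day 18 (SD over 3 lanes).

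Fstl1 (ENSMUSG00000022816, chr16:37776959-37836600, plus strand), a secreted glycoprotein that binds members of the TGF-beta and BMP families, changed least. It had 938, 1093, 1178, 1347, 1681, 1893, 1723, 1702 and 1428 TPM at the successive time points from day 2. On the upper-quartile scale the level doubled to day 12 (ratio 2.02) and then fell back by a factor of 1.33. In TPM as deposited it was highest on day 10 (1776 TPM, against 1708 on day 12). There the ratio of the highest to the lowest day was 1.82. The fitted change was 0.85 (standard error 0.25, edgeR adjusted p = 0.014), and without day 2 it no longer passed (0.70, edgeR adjusted p = 0.072).

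**Figure D2:**
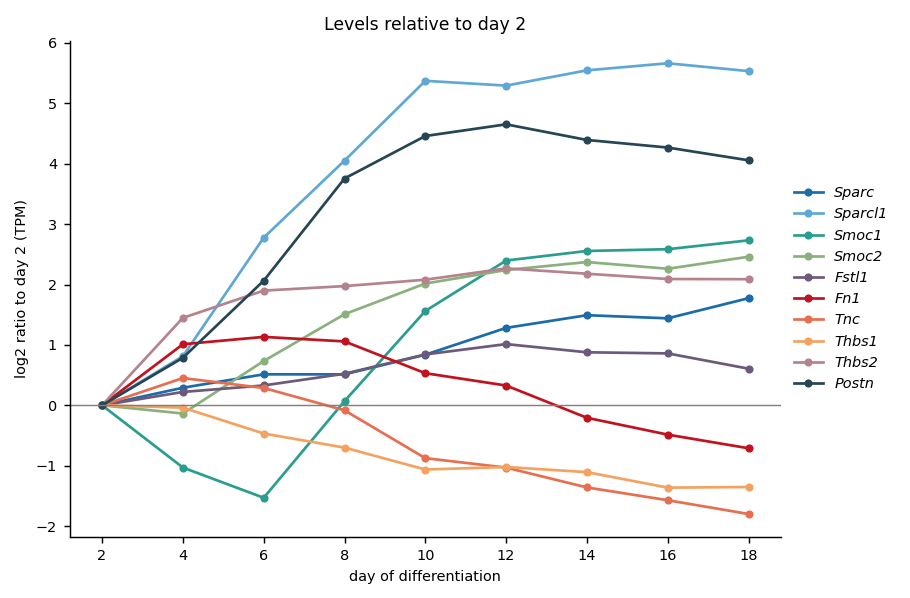
Levels relative to day 2. The vertical axis is the log2 ratio of the TPM of each day to that of day 2, with 1 line per gene. Sparcl1 and Postn lie highest from day 8 on, Smoc1 and, on day 4 alone, Smoc2 dip below their day 2 level before they rise, and Tnc, Thbs1 and Fn1 end below 0.

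Of the adhesive glycoproteins, Fn1 (ENSMUSG00000026193, chr1:71632094-71699774, minus strand) rose early and then fell below where it began. Its level was 898, 1809, 1968, 1869, 1298, 1127, 778, 641 and 548 TPM at the successive time points from day 2. Day 6 stood 2.19-fold above day 2 and 3.59-fold above day 18, with a lane SD of at most 1.18% of the level. The ratio of the highest to the lowest day was 3.89 in TPM as deposited and 3.64 in CPM with TMM factors. Along the line the change was -1.73 (standard error 0.48, edgeR adjusted p = 0.011). It was -1.51 without day 18 and then missed the threshold (edgeR adjusted p = 0.056), and along a natural spline the fitted ends differed by -0.95.

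Tnc (ENSMUSG00000028364, chr4:63620819-63681760, minus strand) fell most of the 10. It had 351, 479.5, 428, 331, 191, 172, 137, 118 and 101 TPM at the successive time points from day 2. The largest step was from day 8 to day 10, at -0.79 log2 units, and no day from day 10 on reached a level of days 2 to 8. In the fit the change came to -2.66 (standard error 0.28, edgeR adjusted p = 6.2e-05).

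Thbs1 (ENSMUSG00000040152, chr2:117937612-117952869, plus strand), whose product is known to activate latent TGF-beta, and Thbs2 (ENSMUSG00000023885, chr17:14802507-14831269, minus strand) went in opposite directions. Thbs1 had 2095, 2039, 1515, 1289, 1002, 1032, 973, 814 and 819.9 TPM at the successive time points from day 2. Thbs2 had 136, 372, 508, 535, 576, 656, 617, 580.4 and 579 TPM at the successive time points from day 2. In TPM as deposited Thbs2 was highest on day 10 (608 TPM, against 592 on day 12). Most of the rise of Thbs2 was over by day 6, whereas the largest step of Thbs1 was a fall of 0.43 log2 units between days 4 and 6. The ratio of Thbs2 to Thbs1 went from 0.0650 on day 2 to 0.713 on day 16 and 0.707 on day 18 (lane SD of 0.0078 or less), and Thbs1 stayed the higher of the 2 throughout. The fitted change was -1.56 for Thbs1 (standard error 0.16, edgeR adjusted p = 5.2e-05) and 1.21 for Thbs2 (standard error 0.47, edgeR adjusted p = 0.0485). The call of Thbs2 is the least secure of the 10, since it was lost in 10 of 21 alternative fits, with a change of 0.51 without day 2 (edgeR adjusted p = 0.086) and of 0.76 between days 2 to 6 and days 14 to 18 (edgeR adjusted p = 0.13). Thbs2 lies 260709 bases beyond Smoc2 on chromosome 17, and both genes rose.

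Postn (ENSMUSG00000027750, chr3:54165031-54194961, plus strand) had 83.1, 143, 347, 1122, 1828, 2089.8, 1747, 1601 and 1383 TPM at the successive time points from day 2. The climb to day 12 was 25.2-fold, with the largest step between days 6 and 8 (1.69 log2 units), and day 18 stood 1.51-fold below the peak. In TPM as deposited the highest day was day 10 (1931 TPM, against 1885 on day 12). The ratio of the highest to the lowest day was 22.3 on that scale and 21.3 in CPM with TMM factors. Among all genes its rank by TPM went from 1322 on day 2 to 38 on days 10 and 12. Along the line the change was 4.23 (standard error 1.21, edgeR adjusted p = 0.013), and it was 3.04 without day 2 and 3.49 without day 4, both short of the threshold (edgeR adjusted p = 0.069 and 0.0505). The ratio of Postn to Fn1 passed from 0.0925 ± 0.0010 on day 2 to 1.41 ± 0.0061 on day 10 and 2.52 ± 0.027 on day 18 (SD over 3 lanes). Tnc was 4.22 times as high as Postn on day 2, and on day 18 the ratio of Tnc to Postn was 0.0729.

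The order of the levels changed accordingly. On day 2 it ran Sparc, Thbs1, Fstl1, Fn1, Tnc, Thbs2, Postn, Smoc2, Smoc1 and Sparcl1. On day 10 Postn stood second behind Sparc, followed by Fstl1, Fn1, Thbs1, Thbs2 and Tnc. On day 18 the order was Sparc, Fstl1, Postn, Thbs1, Thbs2, Fn1, Tnc, Smoc2, Smoc1 and Sparcl1. Neighbours in the order of a day were separated by more than the range of their lanes, except Smoc1 and Sparcl1 on days 8 and 10.

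A line does not describe genes that are highest or lowest in mid-course, so the bend was tested as well, as the quadratic term of a curve in day. The bend is given as the fitted log2 level on day 10 minus the mean of the fitted levels on days 2 and 18, so that a positive value is an arch. It passed in 5 of the 10 genes, all of them arches, against 11.8% of 16256 genes tested and 7.82% as arches. The 5 were Sparcl1 (bend 2.41, standard error 0.30, edgeR adjusted p = 0.0012), Postn (2.32, standard error 0.29, edgeR adjusted p = 0.0011), Thbs2 (1.04, standard error 0.21, edgeR adjusted p = 0.012), Fn1 (0.95, standard error 0.25, edgeR adjusted p = 0.034) and Fstl1 (0.52, standard error 0.12, edgeR adjusted p = 0.019). The bend of Thbs2 was 0.53 without day 2 (edgeR adjusted p = 0.014), and that of Sparcl1 was 1.27 on the log2(TPM + 1) scale of limma (adjusted p = 0.032). For Sparcl1 and Thbs2 the arch is a rise that levels off, for Postn and Fstl1 a rise with a later decline, and for Fn1 an early peak. The bend of Fn1 was 0.40 without day 2 (edgeR adjusted p = 0.21), missed the threshold without day 8, 10 or 16 (edgeR adjusted p = 0.070, 0.071 and 0.060) and had an adjusted p of 0.33 in DESeq2 and 0.058 in limma, and that of Fstl1 missed the threshold without day 10, 12 or 18 (edgeR adjusted p = 0.071, 0.053 and 0.19) and in limma (0.059). Smoc2, whose bend of 0.72 did not pass (edgeR adjusted p = 0.086), passed without day 2 with 1.38 (edgeR adjusted p = 0.0015). No gene of the 10 passed as lower in mid-course, against 4.02% of all genes, and Thbs1 came nearest with -0.29 (standard error 0.10, edgeR adjusted p = 0.080). Thbs1 passed as lower in mid-course with TMM factors (-0.33, edgeR adjusted p = 0.0497) and in DESeq2 (-0.34, adjusted p = 0.0070). It also passed with the 27 profiles taken as samples (edgeR adjusted p = 4.8e-06). That fit counts the lanes of 1 library as separate samples, so its p-value is too small to be set beside the others. Arches made up 66.1% of all bends that passed with upper-quartile factors, 56.0% with TMM factors and 53.0% with DESeq2, so that the split between arches and dips depends on scaling.

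**Figure D3:**
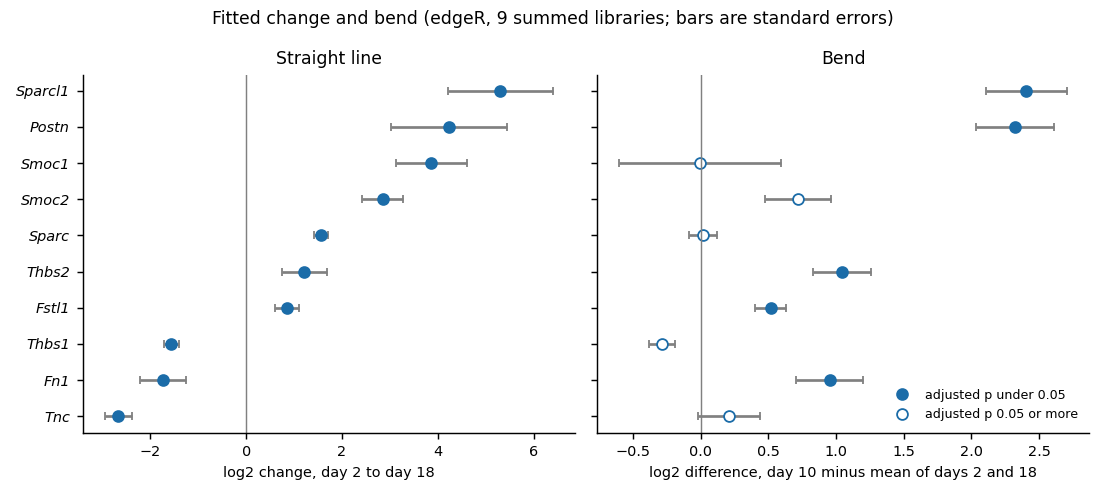
Fitted change and bend of the 10 genes. The left panel gives the log2 change from day 2 to day 18 along a straight line and the right panel the bend, with bars for standard errors and filled points at an adjusted p under 0.05 (edgeR, 9 summed libraries). The line runs from -2.66 for Tnc to 5.30 for Sparcl1, and the 5 filled points on the right are all above 0.

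With a natural spline in day, which tests any change, all 10 genes passed (adjusted p from 1.6e-07 for Tnc to 3.0e-05 for Thbs2 in edgeR), against 57.5% of all genes tested. Reads of 7 of the 10 genes were not divided with other genes, since their estimated counts were whole numbers (within 0.005) in all 27 profiles. Fn1 and Tnc had whole counts in 14 profiles each and Fstl1 in 1, so that RSEM gave part of their reads to other loci. The genes annotated across them on the opposite strand held few counts, with 66 for Apol7d over Fn1, 214 for 8030451A03Rik over Tnc and 267 for the pseudogene Gm15724 over Fstl1, against 2207609, 377374 and 1190818 counts for the 3 genes themselves.

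The mean transcript length, which RSEM weights by the abundance of each annotated isoform, differed between days by more than the lanes of a day in Tnc, Fn1, Fstl1, Sparc, Smoc2 and Postn. It is a description here, since no isoform counts were used. For Tnc it was 6459, 6494, 6517, 6467, 6178, 6057, 5962, 5942 and 5949.5 bases at the 9 time points in turn. The lanes of days 2 to 8 lay between 6441 and 6563 bases and those of days 10 to 18 between 5913 and 6200, with no overlap, and the largest lane SD was 42.4 bases. The annotated Tnc transcripts of 25 and 26 exons are 6833 and 7106 bases long and those of 20, 21 and 22 exons 5472, 5745 and 6018 bases, and a further fragment of 5 exons has 2928 bases. From day 14 on the mean thus lay below the length of the 22-exon form. The step coincided with the steepest fall in Tnc level, between days 8 and 10.

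For Fn1 the mean length was 7945, 7923, 7922, 7921, 7906, 7894, 7885, 7880.4 and 7880.0 bases at the 9 time points in turn, with a largest lane SD of 4.28 bases. The shortest annotated form, of 44 exons and 7797 bases, holds neither cassette exon, and the forms, which also differ elsewhere, of 45 and 46 exons have 8043 and 8312 bases. The mean lay 148 bases above the shortest form on day 2 and 83.0 bases above it on day 18. A mean of this kind bounds the share of Fn1 abundance given to the 2 cassette-bearing forms at 28.8% to 60.4% on day 2 and 16.1% to 33.7% on day 18. These bounds overlap, so the lengths alone do not fix how far that share moved.

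Fstl1 went the other way, with 3462, 3462, 3533, 3642, 3708, 3726, 3737, 3732 and 3729 bases at the 9 time points. Its full-length transcript of 11 exons has 3789 bases and its 5 other annotated transcripts, none of them coding, have 298 to 884 bases, so a rise of the mean is a larger share of the full-length form. Sparc shortened unevenly, with 1572, 1575, 1518, 1535, 1524, 1512, 1482, 1519 and 1451 bases at the 9 time points in turn. Its 6 annotated transcripts have 640 to 2300 bases. The lengths of Thbs2 (5922 bases) and Sparcl1 (3114 bases) did not vary among the 27 profiles. Smoc2 began at a mean of 2745 bases, went to 2543 and 2473 on days 4 and 6, and reached 2832 by day 14. Its lanes of days 4 and 6 (2421 to 2573 bases) lay below all its lanes of days 10 to 18 (2652 to 2832 bases), though a single day's lanes had an SD of up to 90.3 bases. Postn ranged from 2939 bases on day 6 to 3061 on day 18, with a lane SD of up to 57.9 bases. Its lanes of day 6 (2885 to 3000 bases) lay below those of day 18 (3049 to 3067 bases). The means of Smoc1 (3445 to 3464 bases) and Thbs1 (5828 to 5843 bases) ranged over less than their largest lane SD.

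**Figure D4:**
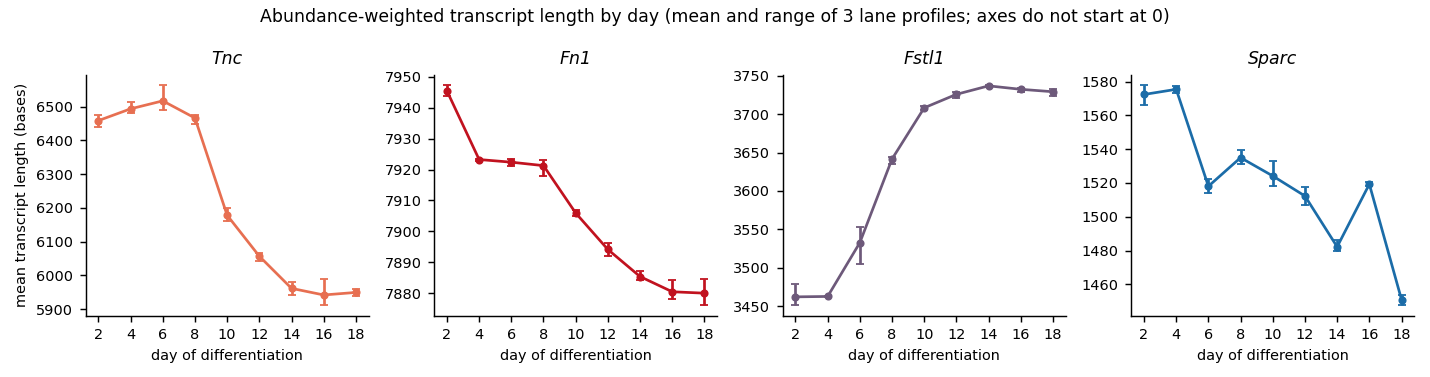
Abundance-weighted transcript length by day for Tnc, Fn1, Fstl1 and Sparc, in bases. Points are the mean and bars the range of 3 lane profiles, and the axes do not start at 0. Tnc drops from 6467 to 6178 bases between days 8 and 10, Fn1 shortens by 65.5 bases from day 2 to day 18, and Fstl1 lengthens by 267 bases.

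Among the other genes of the SPARC family, the testicans Spock1 and Spock2 and the follistatin-like genes Fstl4 and Fstl5, together with Spock3, were low, the highest value being 8.52 TPM for Spock3 on day 16. In the line 2 of 4 tested rose, against 28.3% of all genes tested. They were Spock3 (fitted change 1.27, edgeR adjusted p = 0.0375) and Fstl4 (3.47, edgeR adjusted p = 0.012), the latter at no more than 0.362 TPM. Fstl5, with 4 counts in all, was not tested. Of 7 further thrombospondin, tenascin and fasciclin genes, 6 were tested, 2 rose and 1 fell (28.3% and 26.1% among all genes tested). Comp, the cartilage oligomeric matrix protein and a thrombospondin, rose from 1.29 to 79.6 TPM between the first and the last day (fitted change 6.53, standard error 0.99, edgeR adjusted p = 0.00038). Tnn (tenascin-W) went from 40.4 TPM at day 2 to 10.0 at day 4 and 1.35 at the end (fitted change -4.50, standard error 0.92, edgeR adjusted p = 0.0021), and Tnxb rose at no more than 0.570 TPM. Thbs3, Thbs4 and Tgfbi, the closest paralogue of Postn, did not pass, and Tgfbi was highest on day 8, at 55.1 TPM, against 18.8 at the start and 24.2 at the end.

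A list of 25 receptor genes took in integrin chains in general, so not all of them are receptors of the 10 proteins. Of the 25, 11 rose, 7 fell and 7 did not pass, with a median fitted change of 0.70. Among all genes tested, 28.3% rose and 26.1% fell. Both chains of the main fibronectin receptor, the integrin alpha 5 beta 1, fell. Itga5 had 138 TPM on day 2 and 39.6 and 33.0 TPM on days 10 and 18 (fitted change -2.34, standard error 0.24, edgeR adjusted p = 5.2e-05). Itgb1, the shared beta chain, had 805 TPM on day 2 and 278 on day 18 (fitted change -1.57, standard error 0.20, edgeR adjusted p = 0.00015). The syndecan Sdc4, a co-receptor for fibronectin, and Itgav, an alpha chain that also binds periostin and tenascin-C, fell by 0.92 and 1.02 on the log2 scale (edgeR adjusted p = 0.0019 and 0.00012).

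Other receptors rose. Itga8 (fitted change 1.95, edgeR adjusted p = 3.3e-06) went from 6.12 to 23.9 TPM, Sdc2 (1.51, edgeR adjusted p = 0.00028) from 107 to 263 TPM and Itgb5 (0.78, edgeR adjusted p = 0.0039) from 44.8 to 113 TPM between day 2 and day 18. Cd47, a thrombospondin receptor present on most cells, rose by 0.95 on the log2 scale (edgeR adjusted p = 0.00093). Itga4 also rose (1.08, edgeR adjusted p = 0.015), from 0.485 to 1.49 TPM between day 2 and day 18. Itga9 rose along the line (0.76, edgeR adjusted p = 0.038), with 12.5 TPM on day 2, 6.50 on day 6 and 15.0 on day 18. Itgb3 did not pass (0.47, edgeR adjusted p = 0.25). The largest rises were those of Cd36, a scavenger receptor that binds thrombospondins (fitted change 9.11, standard error 0.72, edgeR adjusted p = 1.8e-05, 0.198 to 35.3 TPM), and of Stab1, a scavenger receptor for SPARC (7.31, standard error 0.63, edgeR adjusted p = 2.5e-05). Stab1 did not follow a smooth course, with 7.01, 0.503, 0.330, 9.81, 4.70, 4.91, 5.87, 14.6 and 82.9 TPM at the 9 time points. Cd36 is also a gene of adipocytes and macrophages and Stab1 one of macrophages, and the markers of both cell types rose over the same days (values above). Among the integrin chains Itgb6 had a fitted change of -3.83 (edgeR adjusted p = 0.0485) from 1.23 TPM on day 2 to no more than 0.258 TPM later, and Itga2, a chain of a collagen receptor, one of 3.61 (edgeR adjusted p = 0.0080).

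**Figure D5:**
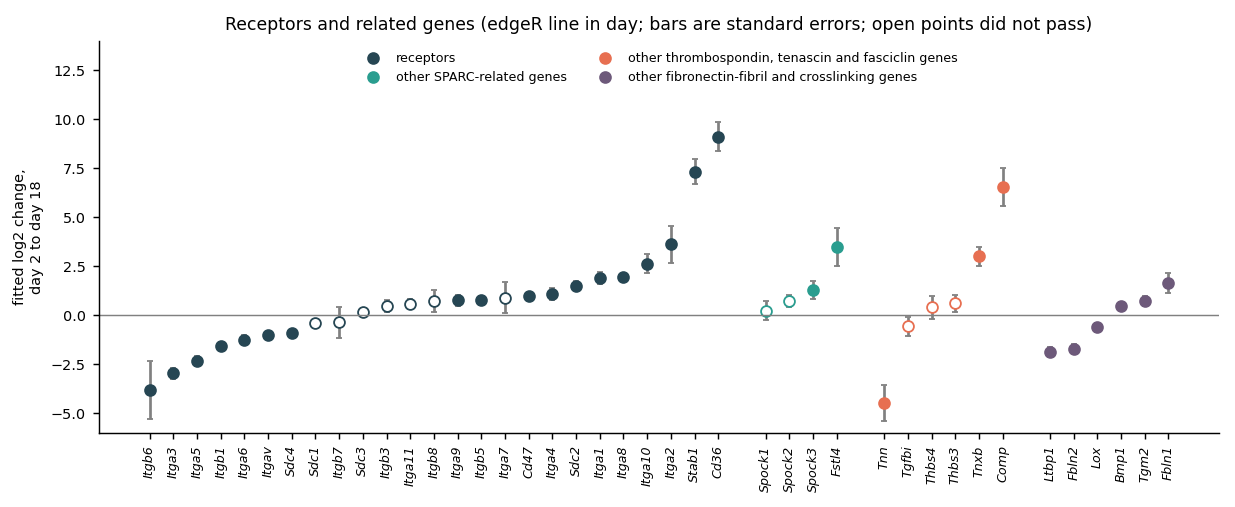
Fitted log2 change from day 2 to day 18 of 41 receptors and related genes that could be tested, grouped by list. Bars are standard errors and open points did not pass an adjusted p of 0.05 (edgeR). Cd36, Stab1 and Comp lie highest and Tnn lowest, and Itga5 and Itgb1 lie below 0.

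Of 6 genes that act on fibronectin fibrils or crosslink the matrix, 3 rose and 3 fell (28.3% and 26.1% among all genes tested). Fbln2 (fibulin-2, which binds fibronectin) had 423 TPM on day 2, 651 on day 4 and 178 on day 18. Ltbp1 (a latent TGF-beta binding protein deposited on fibronectin) had 154, 188 and 64.4 TPM on the same days. Both were highest on day 4, and their fitted changes were -1.71 and -1.89 (edgeR adjusted p = 0.00016 and 0.00018). Lox, the lysyl oxidase that crosslinks collagen, fell by 0.62 on the log2 scale along the line (edgeR adjusted p = 0.038). Its level dropped from 960 TPM on day 2 to 536 on day 10 and was back at 667 on day 18. Fbln1 rose by 1.62, Tgm2 by 0.73 and Bmp1 by 0.49 on the log2 scale (edgeR adjusted p = 0.020, 0.031 and 0.029).

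The genes whose course was most like each of the 10 were taken from 7614 genes with a mean of at least 10 TPM, by Pearson's r over the 9 time points in log2(TPM + 1). These r values are descriptions, as all points come from the same 9 libraries and many genes follow day. For Postn they were Col11a1 (r = 0.996) and Irs1 (0.995), for Sparc Lrp10 (0.994) and Pttg1ip (0.993), and for Sparcl1 Clec11a (0.998) and Crispld1 (0.997). Smoc1 was nearest to Pparg (0.997), one of the adipocyte markers, and to Neo1 (0.993). Smoc2 was nearest to Islr (0.996) and Fxyd6 (0.995), Fstl1 to Ing4 (0.996) and Ebf3 (0.990), and Thbs2 to Aig1 (0.993) and Dkk3 (0.990). Of the genes that fell, Tnc was nearest to Nxn (0.995) and Minpp1 (0.994), Thbs1 to Gnl3 (0.996) and Xpo4 (0.992), and Fn1 to Dhx16 (0.982) and Ahnak2 (0.974). Among the 10 genes themselves, Sparcl1 and Smoc2 had the highest r (0.992) and Sparcl1 and Thbs1 the lowest (-0.983).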

How the data were processed

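RNA sequencing profiles of sorted mouse calvarial cells at 9 time points (27 profiles, 3 lanes per time point) were used. Per the labels, the authors aligned reads with Bowtie 0.12.9 to NCBIM37 transcripts and ran RSEM 1.2.8. The expected count deposited by the authors is RSEM's estimated count per gene. The TPM and FPKM deposited by the authors are RSEM's abundances per effective length, and the deposited lengths are means over isoforms, in bases. GENCODE gene models of NCBIM37 gave symbols and positions for 37205 of 37991 identifiers, and the NCBIM37 genome gave the exon sequences. For symbols with more than 1 identifier, that with the highest count was used.

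TPM were scaled to the 75th percentile of values above 0 in each profile. Expected counts were summed over the 3 lanes of a time point and rounded. The 9 sums were fitted in edgeR 4.0.16 (R 4.3.3) after filterByExpr (minimum count 10) with factors from the upper quartile and the quasi-likelihood test, as a straight line in day, a quadratic curve and a natural spline, with Benjamini-Hochberg adjustment over all genes tested. With 1 library per time point, p-values measure the scatter of the days about the curve. Chi-square tests between lanes used whole-number counts with a sum of 30 or more and gave p from 0.052 to 0.54. A profile held 7331125 to 20888956 estimated counts. Wilson intervals (95%) were computed with scipy 1.17.1 in Python 3.11.15 and cover counting error only.

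The members and lists were chosen with earlier results of these data known. The genes named are the 10 members, the 2 genes most like each in course, up to 4 genes of each related list with the largest changes past the threshold, and list genes of the members' families. Itga4, Itga5, Itga8, Itga9, Itgav, Itgb1, Itgb3, Itgb5, Sdc2, Sdc4, Cd47, Lox, Bmp1 and the marker genes were named after their values were seen. Alternatives were TMM factors, DESeq2 1.42.0, limma 3.58.1 on log2(TPM + 1), other filters, 27 separate profiles, and each lane or day left out.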

Additional observations from a re-analysis of the deposited data

How the results depend on the processing

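Over 21 alternatives the line called 7187 to 10881 genes against 8510, 7 to 10 of the 10 members, and 24 to 37 related genes against 29. The fewest members (4 rose, 3 fell) passed without day 2. The bend is less stable: against 1924 genes and 5 members it called 1008 genes and 3 members without day 10, 1265 genes without day 12, 872 genes without day 18, and 950 genes and 3 members with limma. The replicate numbers did not pair the samples (mean correlation of deviations 0.00698 for equal numbers), and they follow the lane in the profile names. With the 27 profiles taken as samples, the line called 10754 genes without and 10881 with the replicate block, and all 10 members in both. The bend called 6921 genes without and 6739 with the replicate block. These fits count the lanes of 1 library as separate samples, so their p-values are too small. Only bends that did not pass changed sign. That of Sparc was -0.030 with TMM factors, -0.010 with every gene of at least 1 count, -0.039 in DESeq2, and -0.019, -0.0072, -0.0021 and -0.010 without days 12, 14, 16 and 18. That of Smoc1 was 0.019 with a minimum count of 50, 0.19 without and 0.16 with the replicate block, 1.49, 0.20 and 0.19 without days 2, 6 and 8, and from -0.038 to 0.10 with a lane left out. That of Tnc was -0.31 without day 2. The causes were not tested. Depth limits Sparcl1 and Smoc1 most, with lane SDs of up to 20.1% and 19.1% of the level.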
